A study of Mus musculus with 5 samples.

Results

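A set of 88 genes stood lower on both arrays of cells exposed to the polysaccharide AEPS than on each of the 3 arrays without it. The members were chosen by their measured values. For each gene the brightest probe was taken, its log2 signal was set relative to the 75th percentile of the array, and a gene was kept if its lowest value with PBS, OVA or OVA+Alum exceeded its highest value with AEPS or OVA+AEPS by 1 or more. Of 15567 genes whose probe was well above background on at least 1 array, 89 met this rule, or 0.572%, and the iron exporter gene Slc40a1 was left out. In the opposite direction, 169 genes (1.09%) stood higher on both AEPS arrays by as much. The distance between the lowest value without AEPS and the highest value with it is called the separation below, counted upwards, so that a larger separation means a lower signal with AEPS. Since the separation chose the genes, it is given as a description and no test was made of it.

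Peritoneal lavage cells were taken from BALB/c females 2 h after a substance had been injected into the abdomen, and their RNA was measured on 1 single-colour array per injection. The injections were 50 μg AEPS, a root polysaccharide of the kiwifruit relative Actinidia eriantha that is studied as a vaccine adjuvant, 25 μg OVA (ovalbumin, a model antigen) with 50 μg AEPS, PBS (the vehicle), 25 μg OVA alone, and 25 μg OVA with 200 μg alum, an aluminium salt adjuvant. All animals shared the strain, the sex and the time, their age is not given in the labels, and the labels do not say whether an array holds RNA of 1 mouse or a pool. With 1 array per injection no difference has a replicate check, so errors printed with ± are technical standard errors from the scanner's error model, which hold no variation among animals or hybridisations.

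Lavage fluid of a resting mouse holds mainly large resident macrophages and B cells, and an irritant injection brings in neutrophils and monocytes within hours while resident macrophages attach to the lining. Microbial and plant polysaccharides are sensed by pattern recognition receptors, and phagocytes that sense them switch on cytokine and interferon genes while part of their resting programme is turned down. In such a mixture, fewer cells of a type and less RNA per cell cannot be told apart.

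The marker lists showed a mixture of cell types on every array. All 29 measured large peritoneal macrophage markers, all 21 B cell markers and all 26 neutrophil markers were well above background on every array. By the mean log2 value of the list, neutrophil markers stood at 4.94 with AEPS, 4.71 with OVA+AEPS, 3.48 with PBS, 4.73 with OVA and 5.08 with OVA+Alum. Large peritoneal macrophage markers stood at 4.45 with AEPS, 4.64 with OVA+AEPS, 4.94 with PBS, 4.59 with OVA and 3.89 with OVA+Alum, B cell markers at 3.76 with AEPS, 3.76 with OVA+AEPS, 4.16 with PBS, 3.88 with OVA and 4.12 with OVA+Alum, and T cell and NK cell markers at 2.61 with AEPS, 2.13 with OVA+AEPS, 2.39 with PBS, 2.44 with OVA and 2.64 with OVA+Alum. Neutrophil markers were thus lowest with PBS, and the arrays with OVA and with OVA+Alum lay beside those with AEPS. Mast cell markers (16 of 17 above background everywhere) stood at 2.0 with AEPS, 1.96 with OVA+AEPS, 1.13 with PBS, 1.98 with OVA and 1.47 with OVA+Alum. Inflammatory monocyte markers (11 of 11) ranged between 3.48 and 4.12, small peritoneal macrophage and dendritic cell markers (19 of 19) between 2.47 and 2.87, eosinophil and basophil markers (10 of 10) between -0.58 and -0.15, mesothelial, stromal and endothelial markers (16 of 18) between -1.34 and -0.05, and red cell and platelet markers (14 of 16) between 1.15 and 1.78. Of these 10 cell type lists, only that of small peritoneal macrophages and dendritic cells held a member, Flt3. The part of cell composition in the 88 genes was not tested. The PBS array alone lay in row 1 of the slide and shared column 4 with the OVA+Alum array, while the AEPS and OVA+AEPS arrays lay in columns 1 and 3 of row 2, and OVA in column 2. The share of the 55681 probes that passed as above background was 56.7% to 60.0%.

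The separations ran from 1.0 to 2.67, with a median of 1.22; 18 of the 88 genes reached 1.5 and 7 reached 2. Of the members, 66 were well above background on all 5 arrays, or 75%, against 87.9% of all genes tested. A further 21 were not well above background on either AEPS array and 1, Tlr11, was so on the OVA+AEPS array only. For these 22 genes the level with AEPS is only a limit. Dim values also occurred without AEPS: 75 of the 88 genes were above background on all 3 of those arrays. Only 1 of the 5 arrays was above background for 7 genes, so their separation sets dim values against each other. When the dim value with AEPS was replaced by the lowest signal that passed as above background on that array, 3 of the 22 (Foxq1, Gm11545 and Tlr11) kept a separation of 1 or more and 8 one above 0. Dim values without AEPS were left as they were. Thus 69 of the 88 genes had a separation of 1 or more with dim values raised in this way. After normexp background correction with quantile normalization, 30 of the 88 had one of 1 or more. The technical error of the separation had a median of 0.21 and reached 1.55 for dim genes, and for 17 genes the 95% interval that this error gives the separation held 0. Just inside the threshold lay Abhd15 (1.0), Kif5a (1.01), Slamf8 (1.02) and Cdc42ep3 (1.03). Just outside it lay the von Willebrand factor gene Vwf (0.998), Chac1 (0.994), the chemokine receptor gene Cxcr3 (0.991) and the kinase gene Pak1 (0.985).

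**Figure D1:**
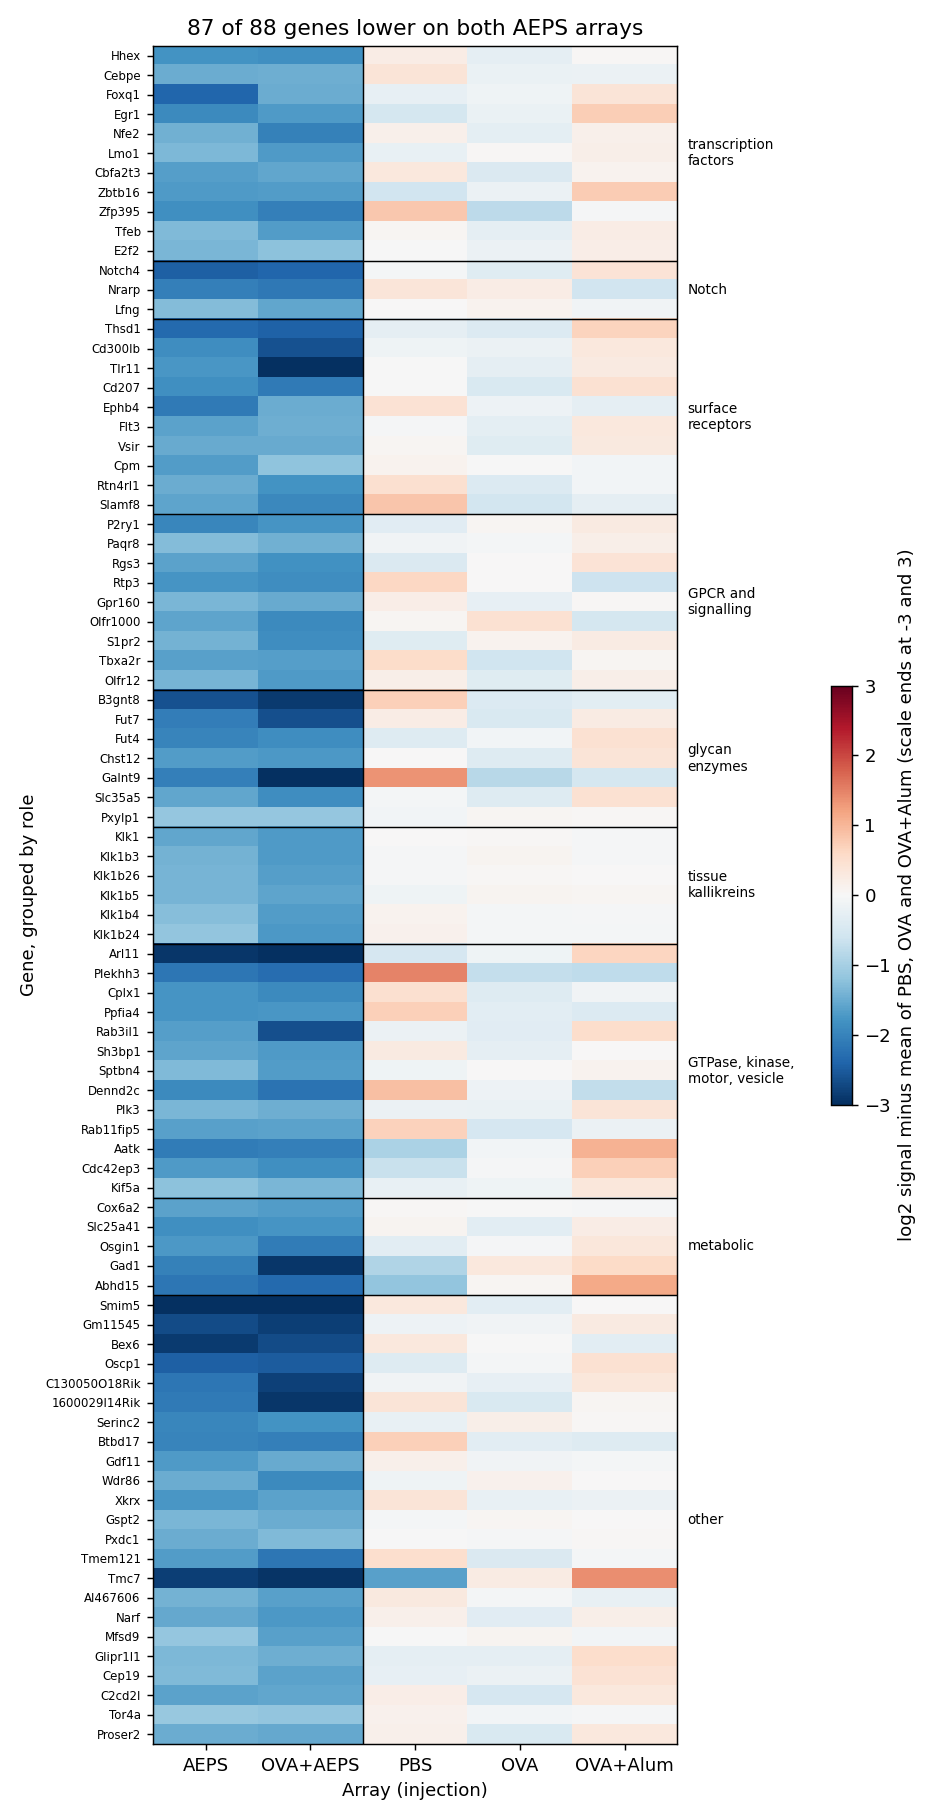
Log2 signal of 87 of the 88 genes (rows, grouped by role and ordered by separation) on the 5 arrays (columns), each row relative to its mean over PBS, OVA and OVA+Alum; the colour scale ends at -3 and 3. Both AEPS columns are blue in every row by the rule, and the spread among the other 3 columns differs from row to row, being narrow for the tissue kallikreins and wide for Tmc7, Plekhh3 and Galnt9.

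The number of genes that met the rule depended on how the arrays were put on 1 scale. Scaling to each array's own median gave 95 genes, quantile normalization gave 93, and 93 were found in the authors' deposited log2 values. Normexp background correction with quantile normalization gave 30, and scaling by the spike-in probes gave 20. Genes higher on both AEPS arrays numbered 152, 162, 161, 114 and 290 in the same order, against 169, so the balance of higher to lower genes depended on the scaling. Spike-in scaling moved the median of all genes, as the mean with AEPS minus the mean without, to 0.36, against -0.07 in the scale used here, so values below are relative to the 75th percentile of all probes. The members were chosen at a separation of 1 or more, and scaling by the median or by spike-in probes only shifts each array by a constant. These shifts were too small to take a member below 0. The deposited values are themselves quantile-normalized, so the 6 scalings are not independent checks. All 88 genes stood lower on both AEPS arrays in each of the 6 scalings, and 8 reached a separation of 1 in all 6. Among them were Arl11, B3gnt8, Oscp1, C130050O18Rik, Cd300lb, Fut7 and Hhex.

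**Figure D2:**
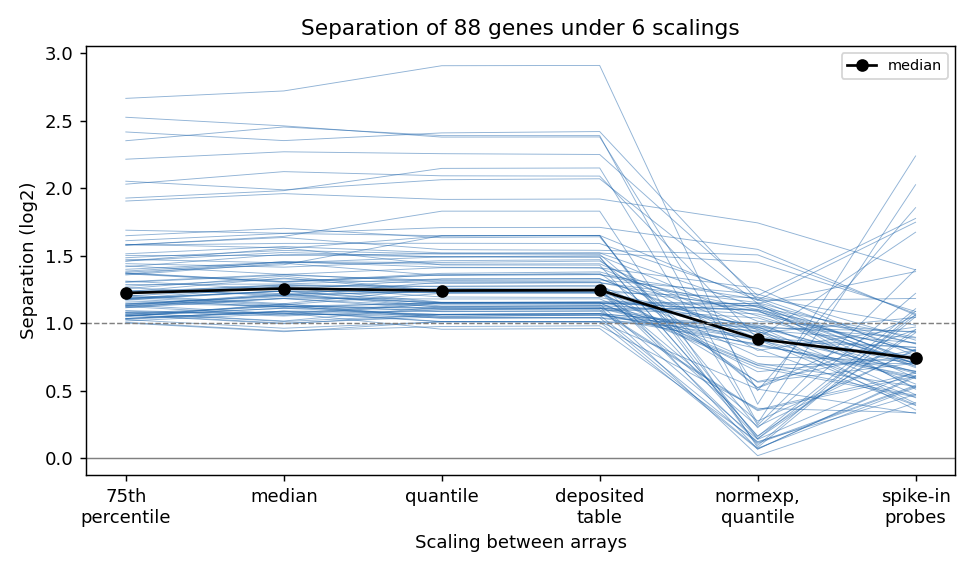
Separation (log2) of each of the 88 genes (thin lines) and their median (black points) under 6 ways of scaling the arrays; the dashed line marks the threshold of 1. The median lies at 1.22 to 1.26 in the first 4 scalings, at 0.88 after normexp with quantile normalization and at 0.74 with spike-in probes, and no line crosses 0.

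Transcription factors and their partners made up 12 of the 88 genes, and several are known from myeloid differentiation. Roles were assigned to the members only, and the share of each role among all genes tested was not counted. Hhex, a homeobox factor of early blood and endothelial cells, stood at 1.18 with AEPS and 1.13 with OVA+AEPS, against 3.19 with PBS, 2.70 with OVA and 3.0 with OVA+Alum. Cebpe, a C/EBP factor of late granulocyte maturation, had values of 1.48 (AEPS) and 1.52 (OVA+AEPS), against 3.35 (PBS), 2.77 (OVA) and 2.80 (OVA+Alum). Both AEPS values of Hhex, and both of Cebpe, lay within 0.1 of each other, and the 3 other values spanned less than 0.6.

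Nfe2, the erythroid and megakaryocytic leucine zipper factor, stood at 2.61 with AEPS and 2.02 with OVA+AEPS, against 4.20 with PBS, 3.75 with OVA and 4.19 with OVA+Alum. Cbfa2t3, which encodes the corepressor ETO2 of blood progenitors, stood at 2.02 with AEPS and 2.12 with OVA+AEPS, against 4.0 with PBS, 3.25 with OVA and 3.78 with OVA+Alum. Zbtb16 encodes the zinc finger factor PLZF, known from innate-like lymphocytes, and had values of -1.47 (AEPS) and -1.45 (OVA+AEPS), against -0.36 (PBS), 0.05 (OVA) and 0.99 (OVA+Alum). Among the 3 arrays without AEPS, Zbtb16 was lowest with PBS and highest with OVA+Alum. Egr1, an immediate early factor, stood at 3.52 with AEPS and 3.74 with OVA+AEPS, against 4.89 with PBS, 5.22 with OVA and 6.17 with OVA+Alum. E2f2, a cell cycle factor, stood at 3.81 with AEPS and 3.95 with OVA+AEPS, against 5.16 with PBS, 4.99 with OVA and 5.39 with OVA+Alum. The rest were Tfeb, a master factor of lysosome genes (separation 1.05 ± 0.20), the LIM-only gene Lmo1 (1.13 ± 0.22), the forkhead gene Foxq1 and the zinc finger gene Zfp395. Foxq1 stood at -5.88 with AEPS and -4.98 with OVA+AEPS, against -3.74 with PBS, -3.63 with OVA and -3.12 with OVA+Alum, and was not above background on either AEPS array. Zfp395 stood at -4.33 with AEPS and -4.54 with OVA+AEPS, against -1.67 with PBS, -3.27 with OVA and -2.52 with OVA+Alum.

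Relatives of these factors did not all stand lower with AEPS. Of 5 measured C/EBP genes, Cebpe alone met the rule, while Cebpd stood at 7.68 with AEPS and 8.05 with OVA+AEPS, against 6.35 with PBS, 7.75 with OVA and 8.04 with OVA+Alum, with overlapping groups. Of 16 measured EGR, NR4A, KLF and other early genes, Egr1 alone met it, but 9 stood lower on both AEPS arrays by some amount and none stood higher by any, with a median of -0.40 for the mean with AEPS minus the mean without, against -0.07 over all genes. Fos, for example, stood at 2.47 with AEPS and 3.16 with OVA+AEPS, against 3.62 with PBS, 3.66 with OVA and 4.91 with OVA+Alum. Over all genes tested, 23.7% stood lower and 13.5% higher on both AEPS arrays by some amount. These gene lists were chosen after the members were known.

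Parts of the Notch pathway were among the members: a receptor, a modifying enzyme and a feedback inhibitor. Notch signalling passes between touching cells, from a Delta or Jagged ligand to a Notch receptor whose cleaved inner part acts in the nucleus. Notch4, a receptor best known from endothelium, stood at -4.17 with AEPS and -4.10 with OVA+AEPS, against -1.76 with PBS, -2.07 with OVA and -1.31 with OVA+Alum, with a separation of 2.03 ± 0.28. Lfng encodes the fringe enzyme that adds sugar to Notch and changes its choice of ligand, and it stood at 0.43 with AEPS and 0.18 with OVA+AEPS, against 1.74 with PBS, 1.84 with OVA and 1.61 with OVA+Alum. Nrarp, a Notch target whose product limits the signal, was well above background with PBS and OVA only, and was at least 1.31-fold lower with AEPS than with PBS and at least 1.31-fold lower with OVA+AEPS than with OVA. These limits carry no measurement error, and the technical error of AEPS minus PBS for Nrarp was 1.47 (log2). The pathway list, chosen after the members were known, held 31 measured genes, of which these 3 met the rule and 1 met it in the opposite direction. That gene was the ligand Dll1, at -1.57 with AEPS and -1.33 with OVA+AEPS, against -4.86 with PBS, -3.83 with OVA and -3.82 with OVA+Alum. Hey1, a Notch target, was above background on 2 arrays only, and it stood at -6.56 with AEPS and -6.51 with OVA+AEPS, against -5.98 with PBS, -1.53 with OVA and -4.42 with OVA+Alum. Over the list the mean with AEPS minus the mean without had a median of -0.19.

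Surface receptors formed a group of 10. Cd300lb, an activating receptor of myeloid cells, stood at -0.30 with AEPS and -1.05 with OVA+AEPS, against 1.43 with PBS, 1.39 with OVA and 1.87 with OVA+Alum, and its separation of 1.69 ± 0.20 was the largest in this group among genes above background on all arrays. Of 7 measured Cd300 genes it alone met the rule, and Cd300c2 and Cd300ld stood lower on both AEPS arrays by less. Cd300ld, for example, stood at 2.15 with AEPS and 1.72 with OVA+AEPS, against 2.72 with PBS, 2.80 with OVA and 3.28 with OVA+Alum. Flt3, the cytokine receptor of dendritic cell and early progenitor growth, stood at -1.27 with AEPS and -1.13 with OVA+AEPS, against 0.30 with PBS, 0.05 with OVA and 0.66 with OVA+Alum. Cx3cr1, a fractalkine receptor gene of the same dendritic cell and small macrophage list, stood at -1.29 with AEPS and -1.57 with OVA+AEPS, against 0.91 with PBS, -0.33 with OVA and -0.56 with OVA+Alum. Of the 19 genes of that list 1 met the rule. Lower on both AEPS arrays by some amount were 7 of the 19, as were 23.7% of all genes tested.

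Tlr11, a Toll-like receptor that recognises parasite profilin in mice, stood at -4.60 with AEPS and -6.35 with OVA+AEPS, against -2.85 with PBS, -3.12 with OVA and -2.57 with OVA+Alum. It was above background with AEPS but not with OVA+AEPS, and was at least 3.65-fold lower there than with OVA. Vsir, which encodes the T cell checkpoint ligand VISTA, stood at 2.65 with AEPS and 2.66 with OVA+AEPS, against 4.24 with PBS, 3.80 with OVA and 4.47 with OVA+Alum. Its AEPS and OVA+AEPS values were nearly equal. Cd207, which encodes the lectin langerin of Langerhans cells, had a separation of 1.40 ± 0.22, Slamf8, a SLAM family receptor of phagocytes, one of 1.02 ± 0.21, Ephb4, the receptor of ephrin-B2, one of 1.23 ± 0.21, Cpm, a membrane-bound carboxypeptidase, one of 1.12 ± 0.21 and the Nogo receptor relative Rtn4rl1 one of 1.07 ± 0.21. Thsd1, a thrombospondin repeat gene, was above background with OVA+Alum only, and was at least 1.76-fold lower with OVA+AEPS than there.

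G protein-coupled receptors for small mediators were also represented. P2ry1, an ADP receptor, stood at -4.14 with AEPS and -3.96 with OVA+AEPS, against -2.52 with PBS, -2.13 with OVA and -1.92 with OVA+Alum. S1pr2, a sphingosine 1-phosphate receptor, stood at -1.23 with AEPS and -1.66 with OVA+AEPS, against -0.17 with PBS, 0.31 with OVA and 0.46 with OVA+Alum. Tbxa2r, the thromboxane A2 receptor gene, stood at -1.36 with AEPS and -1.37 with OVA+AEPS, against 0.83 with PBS, -0.32 with OVA and 0.34 with OVA+Alum. For P2ry1 and S1pr2 the order of the arrays without AEPS was PBS, OVA, OVA+Alum from low to high, whereas Tbxa2r was highest with PBS. In the list of 46 measured chemoattractant and lipid mediator receptors, P2ry1 and S1pr2 met the rule, 1 gene met it in the opposite direction, and 14 stood lower and 7 higher on both AEPS arrays by some amount. For all genes tested, 23.7% stood lower and 13.5% higher by some amount. Cmklr1, the chemerin receptor gene of that list and no member, stood at -4.14 with AEPS and -3.77 with OVA+AEPS, against -0.77 with PBS, -2.79 with OVA and -3.07 with OVA+Alum. The list median was -0.13. Rgs3, which shortens G protein signals, stood at 2.83 with AEPS and 2.61 with OVA+AEPS, against 4.01 with PBS, 4.44 with OVA and 4.85 with OVA+Alum. The remaining genes were the orphan receptor gene Gpr160 (separation 1.13 ± 0.22), the membrane progesterone receptor gene Paqr8 (1.19 ± 0.72), Rtp3 (1.14 ± 1.52), whose product helps receptors reach the surface, and 2 of 303 measured olfactory receptor genes, Olfr1000 and Olfr12. Of the last 4, only Paqr8 was above background on all 3 arrays without AEPS, and none was so with AEPS.

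Genes related to glycans made up 7 members, among them a phosphatase gene and a gene of the nucleotide sugar transporter family. Fut4 and Fut7 encode the α1,3-fucosyltransferases of leukocytes that complete the Lewis x type ligands of selectins, through which leukocytes roll on endothelium. Fut7 stood at -2.34 with AEPS and -2.91 with OVA+AEPS, against -0.04 with PBS, -0.73 with OVA and -0.03 with OVA+Alum. Fut4 stood at -2.56 with AEPS and -2.43 with OVA+AEPS, against -0.96 with PBS, -0.65 with OVA and -0.12 with OVA+Alum. On both AEPS arrays each of the pair lay below all arrays without AEPS, by 1.61 ± 0.21 and 1.47 ± 0.21, and no other of the 10 measured fucosyltransferase genes met the rule. The next of them, Fut11, stood at -2.55 with AEPS and -2.38 with OVA+AEPS, against -1.58 with PBS, -2.01 with OVA and -1.77 with OVA+Alum. The list was chosen after the members were known and had a median of -0.19.

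B3gnt8, which extends N-glycans with N-acetyllactosamine units on which such ligands are carried, stood at -3.53 with AEPS and -3.79 with OVA+AEPS, against -0.21 with PBS, -1.32 with OVA and -1.23 with OVA+Alum, and its difference was -3.32 ± 0.24 for AEPS vs PBS. It was the only one of 23 measured N-acetylglucosaminyl- and sialyltransferase genes that met the rule, and 5 of them stood lower and 6 higher on both AEPS arrays by some amount. For all genes tested, 23.7% stood lower and 13.5% higher by some amount. Gcnt2, which makes branched lactosamine chains, stood at 2.12 with AEPS and 1.5 with OVA+AEPS, against 1.46 with PBS, 3.13 with OVA and 4.07 with OVA+Alum, with overlapping groups. Galnt9, which starts mucin-type O-glycans, was not above background on either AEPS array and was at least 7.72-fold lower with AEPS than with PBS and at least 1.85-fold lower with OVA+AEPS than with OVA. Its value was -5.33 with AEPS and -7.04 with OVA+AEPS, against -1.92 with PBS, -4.10 with OVA and -3.81 with OVA+Alum. The chondroitin sulfotransferase gene Chst12 had a separation of 1.27 ± 0.20, and Pxylp1, a phosphatase acting on the proteoglycan linker, one of 1.06 ± 0.21. Slc35a5, of the nucleotide sugar transporter family, stood at -3.36 with AEPS and -3.65 with OVA+AEPS, against -1.85 with PBS, -2.17 with OVA and -1.35 with OVA+Alum.

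Tissue kallikreins gave the largest group of related genes. These trypsin-like secreted proteases release kinins and cut growth factor precursors, and in mice the family has been multiplied into a cluster on chromosome 7. Klk1, the gene of the kinin-releasing enzyme, stood at -1.65 with AEPS and -1.79 with OVA+AEPS, against -0.08 with PBS, -0.07 with OVA and -0.15 with OVA+Alum. Klk1b3, which encodes the gamma subunit of nerve growth factor complex, stood at -1.20 with AEPS and -1.48 with OVA+AEPS, against 0.17 with PBS, 0.29 with OVA and 0.18 with OVA+Alum. Klk1b5 stood at -0.27 with AEPS and -0.45 with OVA+AEPS, against 1.0 with PBS, 1.22 with OVA and 1.20 with OVA+Alum. In all these genes the 3 arrays without AEPS lay within 0.3 of each other and more than 1 above both AEPS arrays. Klk1b26 (1.37), Klk1b4 (1.22) and Klk1b24 (1.12) gave the other separations, all with an error of 0.21 or 0.22. All 6 members were above background on every array, and the OVA+AEPS value was the lower of the AEPS values in all 6.

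The family was then looked at as a whole, by a list chosen after the members were known. Of 11 measured tissue kallikrein genes, 6 met the rule and all 11 stood lower on both AEPS arrays by some amount, with a median of -1.48 for the mean with AEPS minus the mean without. The 6 members were chosen by these values, and over the other 5 genes the median was -1.29, with a range of -1.48 to -0.39. Klk1b21, chosen after its values were seen as the one whose groups lay closest, stood at -0.99 with AEPS and -1.19 with OVA+AEPS, against -0.41 with PBS, -0.73 with OVA and -0.95 with OVA+Alum. Of 7 measured kallikrein-related peptidases outside that subfamily (Klk4, Klk8 and others), none met the rule and none stood lower on both AEPS arrays by any amount; their median was -0.02. Klk1b24, Klk1b3, Klk1b4, Klk1b5 and Klk1 follow each other along chromosome 7 with no other protein-coding gene between them in the RefSeq annotation of GRCm38.p6. The paralogs are alike in sequence, and their probes may bind RNA of several of them, so the 6 genes are not 6 independent measurements.

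The start regions of these neighbouring genes show how alike they are. Each line gives the 300 bases around the annotated start, most of them before it and the last 50 after it, from RefSeq, GRCm38.p6, with capitals for bases that are identical in the aligned regions of all 6 members (114 positions). Klk1b3 lies at chr7:44197941-44198240, plus strand, Klk1b5 at chr7:44216224-44216523, plus strand and Klk1b24 at chr7:44187986-44188285, plus strand.
Klk1b3: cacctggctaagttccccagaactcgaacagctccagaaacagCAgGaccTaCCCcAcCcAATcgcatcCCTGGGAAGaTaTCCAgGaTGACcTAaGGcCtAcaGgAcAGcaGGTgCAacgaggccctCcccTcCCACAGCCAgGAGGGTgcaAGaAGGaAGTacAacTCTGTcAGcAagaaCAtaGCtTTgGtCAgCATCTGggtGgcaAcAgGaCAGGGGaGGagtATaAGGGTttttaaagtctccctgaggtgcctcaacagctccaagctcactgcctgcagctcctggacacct
Klk1b5: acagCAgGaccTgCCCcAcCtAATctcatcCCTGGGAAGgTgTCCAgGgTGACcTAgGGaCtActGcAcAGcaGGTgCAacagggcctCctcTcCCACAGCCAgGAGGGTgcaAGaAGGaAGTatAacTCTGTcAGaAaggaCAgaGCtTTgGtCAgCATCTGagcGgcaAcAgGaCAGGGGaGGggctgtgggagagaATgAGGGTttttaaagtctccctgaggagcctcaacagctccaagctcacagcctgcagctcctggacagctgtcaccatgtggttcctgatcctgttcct
Klk1b24: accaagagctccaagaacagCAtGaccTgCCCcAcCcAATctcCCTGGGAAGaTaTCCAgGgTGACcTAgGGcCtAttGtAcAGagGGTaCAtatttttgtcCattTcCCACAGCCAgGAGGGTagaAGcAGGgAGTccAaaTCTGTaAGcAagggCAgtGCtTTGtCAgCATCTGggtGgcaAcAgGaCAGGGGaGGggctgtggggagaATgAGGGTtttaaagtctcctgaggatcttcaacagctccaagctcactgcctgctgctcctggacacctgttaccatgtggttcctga
Between pairs of the 6 members, 56.3% to 90.7% of the 300 bases were identical, with a median of 78.3%, and the most alike were Klk1b4 and Klk1b5. Pairs with at least 1 measured family gene outside the set had 52.7% to 86.3%, with a median of 77.2%, so the members' start regions were about as alike as those of the rest of the family. The median number of CG dinucleotides was 1 per 300 bases in the 6 regions, against 18 over the other genes tested.

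**Figure D3:**
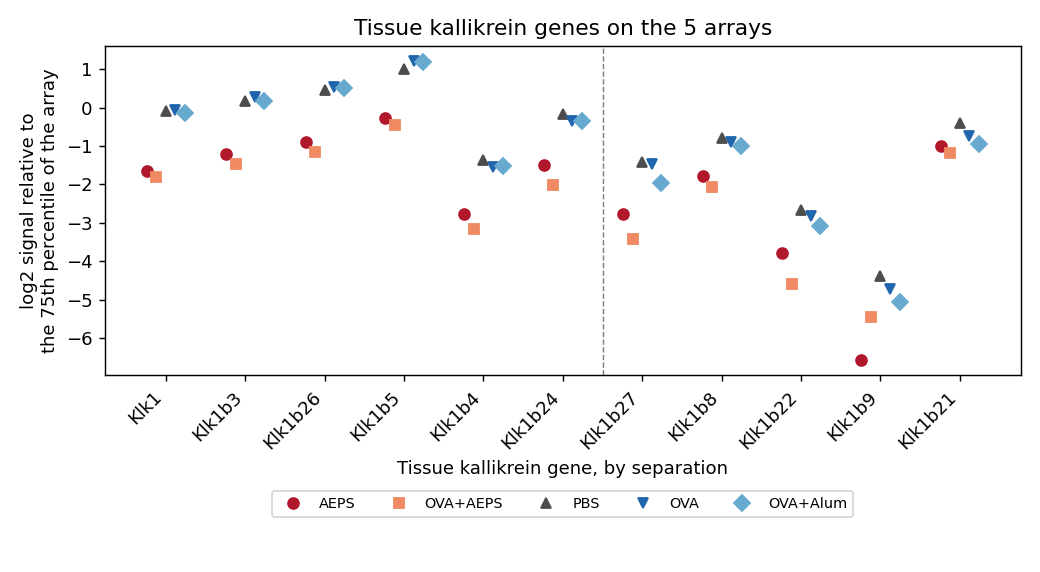
Log2 signal relative to the 75th percentile of the array for the 11 measured tissue kallikrein genes, ordered by separation, with 1 point per array; genes left of the dashed line are members. For each of the 6 members both AEPS points lie more than 1 below the other 3 points, which lie close together, and for Klk1b21 the points nearly meet.

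Genes of small GTPases, kinases, motors and vesicles numbered 13. Arl11, an ARF-like GTPase, had the largest separation of all genes above background on every array, 2.42 ± 0.26, and stood at -3.90 with AEPS and -4.34 with OVA+AEPS, against -1.48 with PBS, -1.11 with OVA and -0.32 with OVA+Alum. It was the only one of 17 measured ARF-like GTPase genes to meet the rule. Of the 17, 7 stood lower on both AEPS arrays by some amount, as did 23.7% of all genes tested. One of the 7, Arl10, stood at -4.21 with AEPS and -3.86 with OVA+AEPS, against -3.13 with PBS, -3.66 with OVA and -3.44 with OVA+Alum. Plekhh3, a pleckstrin homology domain gene, stood at -2.48 with AEPS and -2.60 with OVA+AEPS, against 1.17 with PBS, -1.04 with OVA and -1.10 with OVA+Alum. With PBS it lay more than 2 above OVA and OVA+Alum, which themselves lay more than 1 above both AEPS arrays. Rab3il1, whose product activates Rab GTPases, stood at -0.75 with AEPS and -1.75 with OVA+AEPS, against 0.71 with PBS, 0.55 with OVA and 1.41 with OVA+Alum, about 1 lower with OVA+AEPS than with AEPS. Aatk, an apoptosis-associated kinase gene, stood at -0.32 with AEPS and -0.27 with OVA+AEPS, against 0.82 with PBS, 1.68 with OVA and 2.80 with OVA+Alum.

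Cdc42ep3, a CDC42 effector that shapes the cytoskeleton, stood at 0.21 with AEPS and 0.06 with OVA+AEPS, against 1.24 with PBS, 1.86 with OVA and 2.61 with OVA+Alum. Rab11fip5, an effector of recycling endosomes, had a separation of 1.11 ± 0.20, the SH3 domain binding protein gene Sh3bp1 one of 1.30 ± 0.20, the stress-responsive polo-like kinase gene Plk3 one of 1.17 ± 0.20, the spectrin gene Sptbn4 one of 1.20 ± 0.22 and the kinesin gene Kif5a one of 1.01 ± 0.27. Ppfia4, a liprin of synaptic scaffolds, stood at -1.61 with AEPS and -1.59 with OVA+AEPS, against 0.88 with PBS, -0.14 with OVA and -0.23 with OVA+Alum. The dim members Dennd2c, an activator of Rab GTPases, and Cplx1, a complexin of vesicle fusion, were at least 1.86-fold and 1.04-fold lower with AEPS than with PBS. These limits carry no measurement error, and for Cplx1 the technical error of AEPS minus PBS was 1.48 (log2). Dennd2c, above background with PBS and OVA only, stood at -6.80 with AEPS and -7.09 with OVA+AEPS, against -3.97 with PBS, -5.04 with OVA and -5.63 with OVA+Alum.

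Among metabolic genes, Cox6a2, the muscle-type subunit of cytochrome c oxidase, stood at -2.04 with AEPS and -2.10 with OVA+AEPS, against -0.39 with PBS, -0.45 with OVA and -0.46 with OVA+Alum. All 3 values without AEPS lay within 0.1 of each other, as did both with AEPS. Osgin1, an oxidative stress response gene, had a separation of 1.43 ± 0.20. Gad1, the enzyme that makes the transmitter GABA, stood at -2.83 with AEPS and -3.71 with OVA+AEPS, against -1.71 with PBS, -0.48 with OVA and -0.22 with OVA+Alum. Abhd15, a hydrolase-fold gene of fat cells, stood at -3.05 with AEPS and -3.22 with OVA+AEPS, against -2.05 with PBS, -0.83 with OVA and 0.25 with OVA+Alum, so that with PBS it lay closer to the AEPS array than to OVA+Alum. The mitochondrial carrier gene Slc25a41 was above background with OVA+Alum only.

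Of the 23 other members, Oscp1, a partner of organic solute transport, stood at -3.14 with AEPS and -3.19 with OVA+AEPS, against -1.09 with PBS, -0.77 with OVA and -0.24 with OVA+Alum. C130050O18Rik, for which no role is given here, stood at -0.13 with AEPS and -0.77 with OVA+AEPS, against 1.93 with PBS, 1.78 with OVA and 2.38 with OVA+Alum. AI467606 stood at 3.19 with AEPS and 2.99 with OVA+AEPS, against 4.90 with PBS, 4.56 with OVA and 4.39 with OVA+Alum. Tmc7, a transmembrane channel-like gene, was the least even, at -7.03 with AEPS and -7.14 with OVA+AEPS, against -5.82 with PBS, -3.96 with OVA and -2.81 with OVA+Alum; it was above background with OVA and OVA+Alum only and was at least 4.51-fold lower with OVA+AEPS than with OVA+Alum. Smim5, Gm11545 and Bex6 had the largest separations of dim genes (2.67, 2.53 and 2.35), and as limits they were at least 2.05-fold, 2.02-fold and 1.93-fold lower with AEPS than with PBS. Gdf11, a ligand of the TGF-beta family, and Serinc2, Btbd17, Mfsd9, Glipr1l1 and the long noncoding RNA 1600029I14Rik were also not above background with AEPS. Above background on all arrays were Gspt2, a translation termination factor (separation 1.31 ± 0.21), the XK family gene Xkrx (1.36 ± 0.21), Wdr86, Pxdc1, Tmem121, Narf, the centrosome gene Cep19, C2cd2l, Proser2 and Tor4a, an AAA ATPase of the torsin family, with separations between 1.03 and 1.37. Nrarp and Tor4a are next to each other among the protein-coding genes of chromosome 2.

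The members were then compared among the arrays that the rule puts on the same side, which it did not set against each other. The rule used these same values, taking the highest with AEPS and the lowest without it. The members' spread within a side is therefore not independent of the choice, and shares over all genes are given for scale only. With OVA+AEPS against AEPS, 65 of the 88 genes stood lower and 23 higher, with a median of -0.14 against 0.00 over all genes. The share of all genes that stood lower by any amount was not counted. Of the 88, 21 were not well above background on either AEPS array, so the direction of their difference is uncertain. At least 2-fold lower were 2 members, Tlr11 (-1.75 ± 0.86) and Galnt9 (-1.71 ± 1.54), both not above background with OVA+AEPS, and none was 2-fold higher; over all genes these shares were 2.13% and 2.45%. With the dim value raised to the lowest signal above background on its array, neither was 2-fold lower (1.32% of all genes were). Both arrays hold AEPS, one with the antigen and one without it.

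With OVA against PBS, 11 of 88 members were at least 2-fold lower and 3 higher, where 4.39% and 6.7% of all genes were, and the median was -0.18 against -0.14 over all genes. The lower ones included Plekhh3 (-2.21), Galnt9, Zfp395, Slamf8, Rab11fip5, Tbxa2r, B3gnt8 (-1.11), Dennd2c, Btbd17 and Ppfia4, and the higher ones Tmc7, Gad1 (1.22) and Abhd15 (1.22). With OVA+Alum against PBS, 9 were lower and 8 higher, where 5.42% and 6.46% of all genes were. Btbd17 was not above background with OVA or with OVA+Alum, nor Rtp3 with OVA+Alum, and with such values raised to the lowest signal above background 10 members were 2-fold lower with OVA and 7 with OVA+Alum, where 2.93% and 4.17% of all genes were. The 8 higher ones were Tmc7, Abhd15 (2.30), Aatk (1.98), Gad1, Cdc42ep3, Zbtb16, Egr1 (1.28) and Arl11 (1.16). These 2 comparisons share the PBS array, which also lay alone in its slide row, so array position and injection cannot be told apart in them.

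With OVA+Alum against OVA, 65 of 88 members stood higher and the median was 0.32, against 0.08 over all genes. The share of all genes that stood higher by any amount was not counted. Of the 88 members, 75 were above background on all 3 arrays without AEPS. At least 2-fold higher were 4, Tmc7, Aatk (1.12 ± 0.20), Abhd15 (1.08 ± 0.20) and Thsd1, and none was 2-fold lower, where 4.36% and 5.49% of all genes were. The highest of the 3 arrays without AEPS was OVA+Alum for 42 members, PBS for 35 and OVA for 11, and over all genes tested these arrays were highest for 33.1%, 45.3% and 21.6%. The lowest of the 3 was OVA for 44 members, PBS for 28 and OVA+Alum for 16, and over all genes these were lowest for 41.9%, 27.0% and 31.1%. Members highest with PBS were, for example, B3gnt8, Plekhh3, Slamf8 and Tbxa2r, those highest with OVA+Alum included Arl11, Oscp1, Egr1, Aatk and Gad1, and among those highest with OVA were Klk1, Klk1b3, Klk1b5, Klk1b26 and Lfng.

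**Figure D4:**
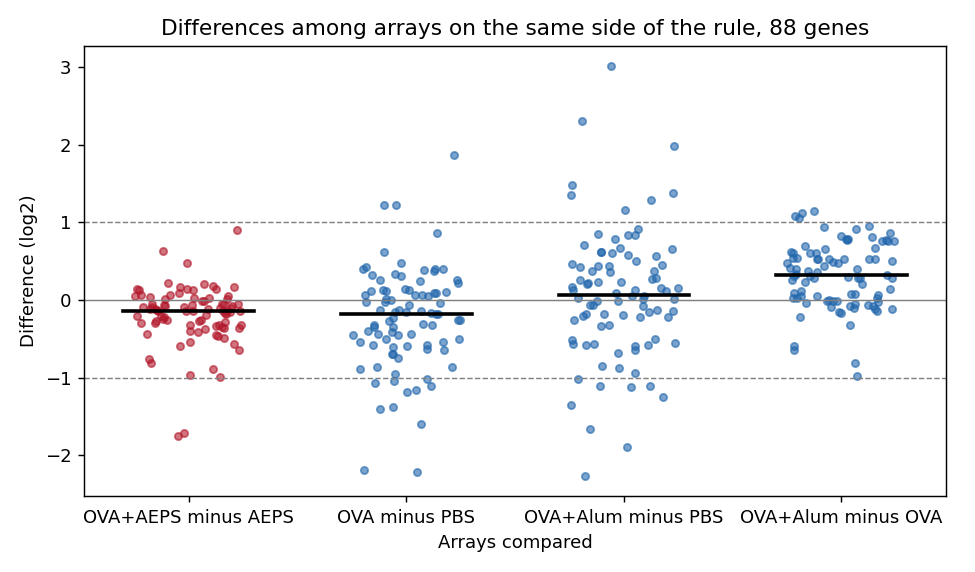
Log2 difference of the 88 genes (points) between the arrays with AEPS (red) and between those without it (blue); black bars are medians and dashed lines mark 2-fold. Of the red points 2 lie below -1 and none above 1, while the differences from PBS reach -2.26 and 3.01.

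Further probes of the same genes, on the same arrays, were not used by the rule. Of the 88 genes, 67 had a single probe and 21 had more. Among their further probes, 20 probes of 16 genes were well above background on at least 1 array. Of these 20, 4 had a separation of 1 or more, 11 one between 0 and 1, and 5 stood at or below 0, so that 75% lay above 0, with a median of 0.50. Over 4619 further probes of other genes, 23.0% lay above 0 and the median was -0.27, and 0.453% of all further probes reached 1. Of the 20, 13 probes of 10 genes were above background on all 5 arrays, and of these 2 reached 1, 8 lay between 0 and 1 and 3 at or below 0, with a median of 0.43, against -0.24 over such probes of other genes. The second probe of Fut7 had a separation of 2.04, above background on the 3 arrays without AEPS only, and that of Tmem121 one of 1.54. For Zfp395 the further probes gave 1.22, on 3 arrays above background, and -0.64, and for Cbfa2t3 1.20 and -0.03. Those of Rgs3 gave 0.80 and 0.57, that of Vsir 0.74, of Fut4 0.69, of Flt3 0.64 and of Ephb4 0.57, all in the direction of the first probe. Oscp1 gave only 0.20 at its second probe, against 2.05 at the first. Ppfia4 (-0.16), Slc35a5 (-0.07) and Abhd15 (-1.86) stood below 0 at the further probe. For Abhd15, at the edge of the threshold, the further probe had its highest value among the AEPS arrays with OVA+AEPS (-3.07), above that with PBS (-4.93). Which transcripts the different probes of a gene detect was not analysed here.

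**Figure D5:**
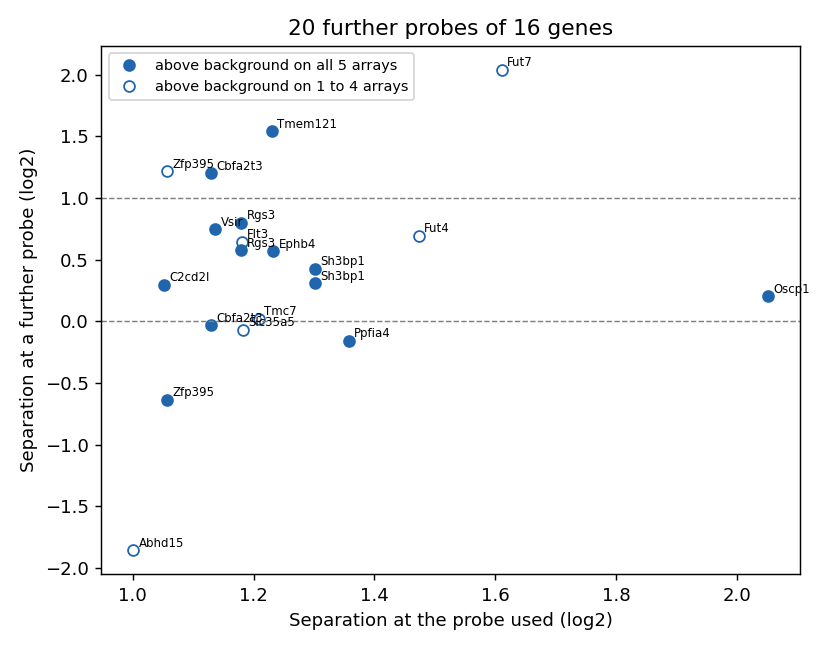
Separation (log2) at the probe used (x axis) and at a further probe of the same gene (y axis) for 20 further probes of 16 genes; open circles are probes above background on 1 to 4 arrays only, and dashed lines mark 0 and 1. Of the 20 points 15 lie above 0 and 4 above 1, and Abhd15 lies lowest.

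What the members share in their start regions was described from RefSeq sequences of GRCm38.p6, over the same 300-base window, with the first listed start per gene. An entry was found for 72 of the 88 genes. Their median GC content was 60.8%, against 59.3% over 12325 other genes tested, and the median count of CG dinucleotides was 16 against 18. Motifs were searched as fixed letters on both strands, and may overlap. The interferon-stimulated response element (ISRE) was in 3 regions (4.17%, against 3.25% of the others), the NF-kB motif in 46 (63.9% against 63.3%), the AP-1 type TGANTCA in 7 (9.72% against 5.83%) and the E-box CACGTG in 8 (11.1% against 9.39%). The ETS core GGAAG was in 56 (77.8% against 74.0%), TATAAA in 6 (8.33% against 9.79%), the SP type GGGCGG in 40 (55.6% against 56.7%) and the CRE TGACGTCA in 2 (2.78% against 2.88%). Shares in the members thus lay near those of other genes, the AP-1 type being furthest apart by ratio, with 7 regions: Slamf8, Tor4a, Cd207, Lmo1, Osgin1, Notch4 and Xkrx.

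The start regions of 4 members of large separation in different roles are given as examples, with capitals for the letters of any of the 8 motifs, whose matches may overlap. Arl11 lies at chr14:61309503-61309802, plus strand, B3gnt8 at chr7:25627374-25627673, plus strand, Notch4 at chr17:34564045-34564344, plus strand and Fut7 at chr2:25422992-25423291, plus strand.
Arl11: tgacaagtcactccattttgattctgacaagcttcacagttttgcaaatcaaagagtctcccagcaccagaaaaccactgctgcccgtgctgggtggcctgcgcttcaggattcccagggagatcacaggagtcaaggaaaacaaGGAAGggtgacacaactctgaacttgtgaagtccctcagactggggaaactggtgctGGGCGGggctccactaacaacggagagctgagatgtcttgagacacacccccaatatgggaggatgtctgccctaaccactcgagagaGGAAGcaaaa
B3gnt8: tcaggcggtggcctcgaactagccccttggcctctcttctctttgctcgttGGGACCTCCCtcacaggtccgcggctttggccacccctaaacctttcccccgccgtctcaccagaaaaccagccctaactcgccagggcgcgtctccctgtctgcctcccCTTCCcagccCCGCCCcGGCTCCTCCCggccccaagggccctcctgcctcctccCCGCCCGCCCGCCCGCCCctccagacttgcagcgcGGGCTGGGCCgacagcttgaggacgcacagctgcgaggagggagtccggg
Notch4: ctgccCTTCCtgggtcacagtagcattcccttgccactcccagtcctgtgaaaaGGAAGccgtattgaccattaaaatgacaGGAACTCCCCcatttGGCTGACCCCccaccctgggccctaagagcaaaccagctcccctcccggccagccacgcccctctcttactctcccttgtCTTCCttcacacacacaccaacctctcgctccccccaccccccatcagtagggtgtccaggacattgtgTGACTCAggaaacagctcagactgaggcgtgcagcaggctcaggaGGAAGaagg
Fut7: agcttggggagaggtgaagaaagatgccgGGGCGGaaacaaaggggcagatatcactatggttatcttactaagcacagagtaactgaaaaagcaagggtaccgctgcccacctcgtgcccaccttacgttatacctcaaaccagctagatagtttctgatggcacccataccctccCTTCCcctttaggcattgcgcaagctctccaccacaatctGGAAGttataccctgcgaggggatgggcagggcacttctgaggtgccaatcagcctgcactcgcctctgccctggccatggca
Notch4 alone of the 4 held the AP-1 type letters, close to its start, and B3gnt8 held overlapping GGGCGG matches on its minus strand, as a run of CCGCCC. A match shows only that the letters are there.

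Other gene lists describe what lay beside the members. Of 24 lists, 7 held a member, 9 members in all, and the remaining 17 held none apart from Slc40a1 in the iron list. The lists held 10 to 46 measured genes and 0.572% of all genes tested met the rule, so at that share most lists would hold none. Of 28 measured cell cycle genes E2f2 alone met the rule, and the list median was -0.31. Of the 28, 7 stood lower on both AEPS arrays by some amount, as did 23.7% of all genes tested. Of 35 interferon-stimulated genes none stood lower and 30 met the opposite rule, with a median of 2.13, and of 28 NF-kB responsive genes none stood lower and 3 met the opposite rule, with a median of 0.88. The medians were -0.25 for 20 oxysterol and cholesterol efflux genes, -0.13 for 23 quiescence and FOXO-related genes, -0.15 for 19 clock genes, -0.10 for 25 TGF-beta, BMP and ID genes, 0.11 for 24 iron and haem genes and -0.08 for 14 housekeeping genes, against -0.07 over all genes. By symbol, the members held 1 of 316 measured Zfp genes, 2 of 285 Slc genes, 2 of 81 Rab genes and none of 50 Trim, 56 Kcn or 130 Fam genes. Beside the 0.572% of all genes tested that met the rule, counts this small say nothing about the families.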

How the data were processed

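RNA of peritoneal lavage cells was hybridised to single-colour Agilent arrays (Cy3), 1 per injection. The authors deposited 1 scanner file per array, with a linear intensity for every spot, made with Agilent Feature Extraction 10.7.1.1, per the file headers, with spatial and multiplicative detrending switched on. Flags for background and outliers come from the same files. The deposited series table holds log2 values that are quantile-normalized between the 5 arrays, since the sorted values of its columns differ by at most 0.01 at any rank (each has a median of 4.66).

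Control and outlier spots were left out. The processed signal was taken as log2 minus the log2 75th percentile of the array, and spots of a probe were averaged. A probe was named through its RefSeq accession in GRCm38.p6 (26582 of 55681 probes had 1 symbol, 29099 had none), and the brightest of a gene's probes stood for it, for 20121 genes with a value on every array. No test was run, since each injection has 1 array, and the number of arrays limits the precision. Lists were described by counts and medians. For dim probes a fold is a limit, computed against the lowest signal above background on that array or the probe's own, whichever was higher. Such a limit is nominal and carries no measurement error, so a fold near 1 does not set the arrays apart.

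Genes with full values were the 12 largest separations above background on all arrays, the 8 with the highest signal, up to 4 per list, the 6 largest ranges among the arrays without AEPS, the 6 largest differences between the AEPS arrays and up to 6 with a further probe below 0; other members are named with their separation, and further ones with full values (Cebpe, Zbtb16, Tbxa2r, Lfng and other kallikreins) and the 8 added lists were chosen after values were seen. Genes that are no members were named from the 3 largest differences of a list that holds a member. The members and lists were chosen with earlier results of these data known. Values were computed with Python 3.11.15, limma 3.58.1 (normexp, offset 50) and mafft 7.526. The selection rule was tried on simulated arrays whose only noise was the scanner error, with probes above background on every array. It was not tried on dim genes or on variation among animals or hybridisations. Alternatives were other scalings, filters, probe choices, thresholds and arrays left out; those for single members, lists and dim signals (also in the comparisons among arrays) were added after seeing the data. Results for 1 member and 3 gene lists are not reported here. No per-sample column of the deposited table was left unused.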

Additional observations from a re-analysis of the deposited data

How the results depend on the processing

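The number of member genes was 88. It stayed between 66 and 118 with the median of each array, quantile normalization, the deposited table, a percentile over bright probes, stricter or no filters on dim probes, the median over the probes of a gene, the array file's own names (111) and without the OVA+Alum array (118). It was 20 with spike-in probes and 30 with normexp and quantile normalization, all of them among the 88. A threshold of 0.58 gave 342 genes and one of 2 gave 7. With fewer arrays more genes could meet the rule: 147 without the PBS array, 187 without OVA, 193 without AEPS and 179 without OVA+AEPS.

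Counts among members also moved. With the median of each array, 7 members were 2-fold lower with OVA than with PBS, 5 lower with OVA+Alum than with PBS, and 4 lower with OVA+AEPS than with AEPS. With dim values raised to the lowest value above background on their array these numbers were 10, 7 and 0. With normexp and quantile normalization these numbers were 4, 3 and 0, and 0 members were 2-fold higher with OVA than with PBS and 1 higher with OVA+Alum than with OVA. The tissue kallikrein median relative to all genes, over 11 genes of which 6 are members chosen by these values, was -0.85 there, against -1.41, and the inflammatory monocyte median 0.34 by the median over probes, against 0.06. Leaving an array out can only raise a separation, so those settings could not reverse a sign. Scaling by the median or by spike-in probes shifted each array by a constant too small to reverse a member. The median over probes could not change the 67 genes with a single probe, and the deposited table is itself quantile-normalized. Most signs were therefore fixed in advance, and their count is no independent check. Of 968 recomputed member separations, with all these settings included, 966 kept their sign. By the median over probes, Abhd15 (-0.34) and Cbfa2t3 (-0.033) did not. The cause was not tested in any of these. No paired analysis was possible because each injection has 1 array. Genes not above background with AEPS have only a limit there.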
